A study of Mus musculus with 8 samples.

Results

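ES cells of genotype mbd4-/- were compared with wild-type ES cells, which are 2 of the 8 samples of a mouse series on demethylation at CpG islands. Both samples were chosen by their genotype labels, and each is 1 array. ES cells are pluripotent cells grown from the early embryo. The labels give neither the Mbd4 allele, the strain, the sex, the passage nor the number of clones of the ES cells, so the mutant and wild-type cells may differ in more than Mbd4. The other 6 samples were used only for values side by side: ES cells of genotype aid-/-, ES cells with a Gadd45a knock down, and liver and spleen from C57BL6/J mice aged 6 months that were either aid-/- or mbd4-/-. Methylated DNA had been pulled down with an antibody against 5-methylcytidine, and bound DNA (Cy5) and input DNA (Cy3) of the same sample were hybridised together to an array of CpG island probes.

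CpG islands are stretches of DNA rich in the CpG dinucleotide, and many lie at promoters. Most stay free of methylation. Exceptions include imprinted control regions, which carry methylation on the copy inherited from 1 parent alone, and the islands of some germ cell genes. MBD4 binds methylated CpG through its MBD domain, and its glycosylase domain removes thymine or uracil opposite guanine. Thymine arises when 5-methylcytosine loses its amino group, so MBD4 acts in repair at methylated CpG and has been discussed as a step of active demethylation.

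The unit throughout is log2 of bound over input signal minus the median of the array, so 0 is the typical probe and not absence of methylation. The ratio is no percentage of methylation, and fewer methylated cells and less methylation per cell cannot be told apart in it. Values were averaged over the probes of 12824 autosomal regions of at least 3 probes (median 5 probes and 619 bp), and the printed error is the SD over the probes of a region. With 1 array per genotype there is no replicate error and no test: a difference compares these arrays, not the genotypes. A region counts as higher or lower when the arrays differ by at least 1 and at least 75% of its probes differ in that direction. A region counts as low at or under 0, and as high at or over 50% of the plateau of its array, which is the 98th percentile of regions. The plateau was 4.30 in ES mbd4-/- and 3.36 in ES wild type, so counts of regions and of gene lists are also given with both arrays scaled to one plateau of 3.83.

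The central probes of the 4 regions with the largest positive and the 4 with the largest negative difference show what was measured at the sites the results turn on. The sequences are those of the deposited array files, 5′ to 3′ with CpG in capitals, and the files give no strand for them. Positions are in build mm9. The first 4 probes lie at chr11:22872537-22872581, chr2:152512670-152512714, chr10:12810713-12810757 and chr6:58856960-58857004, and the last 4 at chr15:53734115-53734159, chr2:155343801-155343845, chr15:57743868-57743912 and chr4:140803764-140803808.
Zrsr1: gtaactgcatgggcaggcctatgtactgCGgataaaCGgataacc
Mcts2: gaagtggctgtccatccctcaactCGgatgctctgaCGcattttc
Plagl1: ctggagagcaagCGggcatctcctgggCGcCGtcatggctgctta
Nap1l5: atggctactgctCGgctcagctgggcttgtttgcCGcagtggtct
Samd12: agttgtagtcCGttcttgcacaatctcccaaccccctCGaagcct
Acss2: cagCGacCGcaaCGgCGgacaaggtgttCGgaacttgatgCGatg
Wdr67: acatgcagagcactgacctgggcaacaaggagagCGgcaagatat
Arhgef19: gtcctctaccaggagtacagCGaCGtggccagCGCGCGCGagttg
Each probe differed in the direction of its region, but the regions were picked by their difference, so this adds no support. The Zrsr1 probe read 4.50 in ES mbd4-/- and −1.03 in ES wild type, and the Arhgef19 probe, with 6 CpG in 45 bases, read 0.75 in ES mbd4-/- and 2.98 in ES wild type. The Acss2 probe had no bound signal well above background in ES mbd4-/-.

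Promoter windows are shown for 4 genes whose regions were high in ES mbd4-/- and low in ES wild type, because some of their probes lie within them. The windows of Mcts2 and Atf4 held 2 probes each and those of Nap1l5 and Kcnq1ot1 held 1 each. The values of the regions thus rest mostly on probes outside the windows. They span 250 bases before to 50 after the RefSeq start, are written along the strand of the gene with CpG in capitals, and come from RefSeq in build GRCm38.p6. Probes were placed in them by identical sequence, without converting coordinates. Mcts2 lies at chr2:152686898-152687197 on the plus strand (25 CpG), Nap1l5 at chr6:58907077-58907376 on the minus strand (17 CpG), Kcnq1ot1 at chr7:143296498-143296797 on the minus strand (9 CpG) and Atf4 at chr15:80254934-80255233 on the plus strand (22 CpG).
Mcts2 promoter: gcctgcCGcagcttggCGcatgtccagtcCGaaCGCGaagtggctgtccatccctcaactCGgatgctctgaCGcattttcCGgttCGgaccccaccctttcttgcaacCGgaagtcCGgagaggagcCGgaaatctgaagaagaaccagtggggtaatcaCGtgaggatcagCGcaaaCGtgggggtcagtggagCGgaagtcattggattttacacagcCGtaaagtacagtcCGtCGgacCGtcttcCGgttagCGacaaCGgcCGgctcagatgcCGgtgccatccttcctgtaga
Nap1l5 promoter: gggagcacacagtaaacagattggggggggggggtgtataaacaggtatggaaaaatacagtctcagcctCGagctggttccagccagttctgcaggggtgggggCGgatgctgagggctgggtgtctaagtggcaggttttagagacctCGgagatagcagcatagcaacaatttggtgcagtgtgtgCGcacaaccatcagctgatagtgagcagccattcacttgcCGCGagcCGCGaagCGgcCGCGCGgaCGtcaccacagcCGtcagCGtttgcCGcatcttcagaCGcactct
Kcnq1ot1 promoter: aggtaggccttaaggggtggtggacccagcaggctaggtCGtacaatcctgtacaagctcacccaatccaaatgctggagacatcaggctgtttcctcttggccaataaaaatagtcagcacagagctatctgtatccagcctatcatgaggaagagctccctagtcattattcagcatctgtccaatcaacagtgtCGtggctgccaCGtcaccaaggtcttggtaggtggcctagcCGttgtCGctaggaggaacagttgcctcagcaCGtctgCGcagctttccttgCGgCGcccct
Atf4 promoter: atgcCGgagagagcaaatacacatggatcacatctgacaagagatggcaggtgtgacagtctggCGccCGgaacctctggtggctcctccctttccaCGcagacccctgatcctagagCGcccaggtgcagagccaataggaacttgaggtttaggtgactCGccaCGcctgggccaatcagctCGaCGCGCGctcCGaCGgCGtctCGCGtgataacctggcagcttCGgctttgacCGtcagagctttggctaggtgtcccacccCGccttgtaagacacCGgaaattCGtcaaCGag
The hexamer TGCCGC and its reverse complement were searched, so both strands were covered. The zinc finger protein ZFP57 binds this hexamer in its methylated form at imprinted control regions. It occurred in the Mcts2 window (1 match) and the Nap1l5 window (2 matches) and had no match in the Kcnq1ot1 and Atf4 windows, while 11.6% of all 32851 RefSeq promoter windows hold it. Among probes, 6 of the 14 regions that were high in ES mbd4-/- and low in ES wild type had a match, against 1670 of all 12824 regions, and 8 of their 100 probes did, against 2.41% of all probes. In the imprinted list described below, 7 of the 17 regions counted as higher and 3 of the 13 others had a match, but per probe the order was the other way round, at 7 of 123 and 4 of 57. A match occurred in 8.80% of all higher regions and 6.94% of all lower regions. A match is a run of letters and not a bound site.

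Before the results, 3 facts of the arrays bear on them. The mutant and wild-type arrays were on different slides, came from different scans and were processed with different versions of the scanner software (an older one with detrending for ES mbd4-/-, a newer one for ES wild type), so array batch and genotype cannot be told apart. Bound signal was well above background for 81.1% of probes in ES mbd4-/- and 91.1% in ES wild type, and the median input signal was 99.4 and 205 intensity units. The input DNA of chromosomes 1, 8 and 11 was lower in ES mbd4-/- than in ES wild type by 0.289 to 0.346 on the log2 scale, against −0.011 to 0.121 for the other 16 autosomes, and the count over all regions, and some list counts, are also given without those chromosomes. Mbd4 itself was checked as far as probes allow. Its region (chr6:115803273-115803885, 7 probes, 3 of them in the RefSeq promoter window of Mbd4) averaged −1.10 ± 0.95 in ES mbd4-/- and −0.03 ± 0.75 in ES wild type (SD over probes), a difference of −1.07, which was −0.95 at one plateau and then no longer passed. Input signal, the denominator of the ratio, was higher in ES mbd4-/- at all 7 probes, by 0.217 to 1.846. For the bulk of probes on the arrays this input difference ran from −1.408 to 1.502. The labels do not say which part of Mbd4 was deleted, so this region does not check the knockout.

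Methylated regions read higher on the ES mbd4-/- array than on the ES wild type array, and fewer did so at one plateau. The largest differences lay at imprinted control regions. Of 12824 regions, 1023 were higher (7.98%) and 317 lower (2.47%), so 76.3% of the regions counted either way were higher. Differences of any size were positive in 7086 of the 12824 regions. At one plateau 563 were higher (4.39%) and 229 lower (1.79%), with 456 and 202 shared between both scales. With the arrays centred on their low mode in place of the median, 1449 were higher and 185 lower, and after normexp background correction 158 and 16. Of the regions counted either way, 88.7% and 90.8% were higher there. The low mode also shifts the median difference of all regions to 0.22, against 0.07. The median region stood at −0.14 in ES mbd4-/- and −0.13 in ES wild type. The probes of the arrays did not overlap in 722 regions with a difference of 1 or more in the positive direction (5.63%) and in 58 in the negative direction (0.452%). Without chromosomes 1, 8 and 11, 755 of 10230 regions were higher (7.38%) and 290 lower (2.83%).

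Most higher regions were above 0 in wild type too, and 232 of the 1023 were low there. Their median was 2.53 in ES mbd4-/- and 0.97 in ES wild type, with a median difference of 1.28, and 610 of them were high in ES mbd4-/-, against 352 in ES wild type. Few differences were large: 81 reached 2, 19 reached 3 and 12 reached 4. The lower regions lay at the bottom of the scale, with a median of −1.36 in ES mbd4-/- and −0.12 in ES wild type. Of the 317, 308 were low in ES mbd4-/-, and in 65 fewer than 50% of the bound probes were above background there. The SD over their probes was 1.198 in ES mbd4-/- and 0.71 in ES wild type (medians). When only probes with bound signal above background on both arrays were used, 1039 regions were higher and 104 lower.

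**Figure D1:**
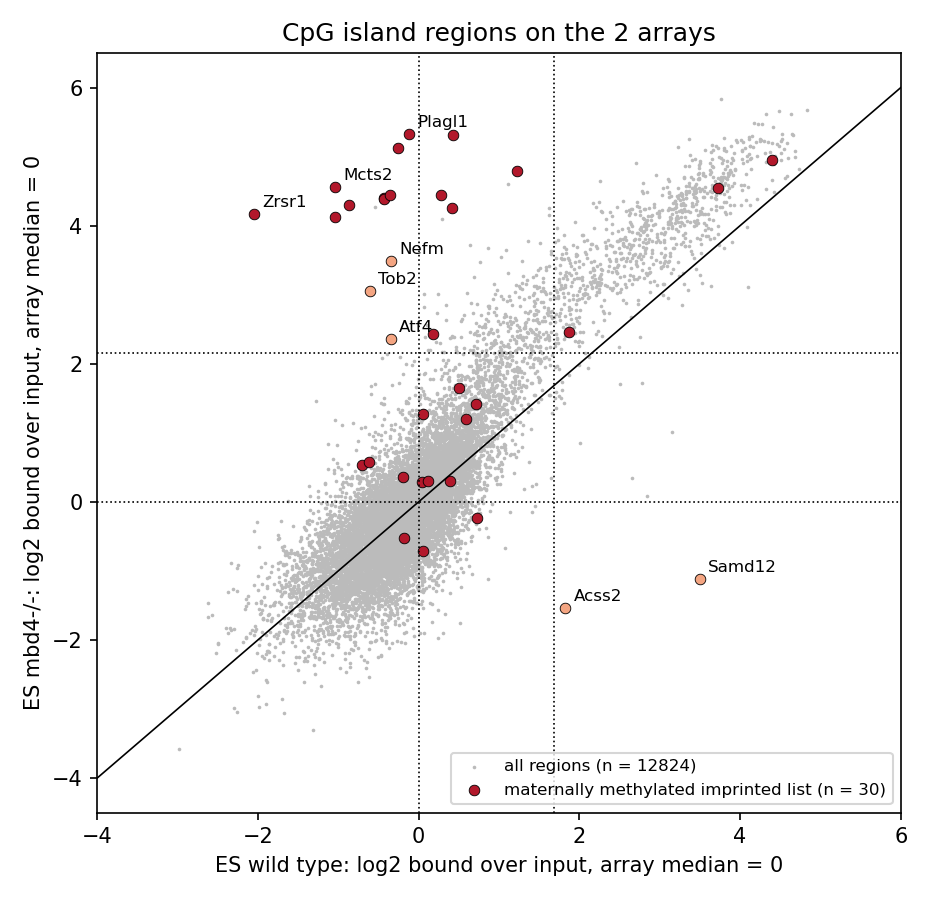
Each grey point is 1 of 12824 regions, with ES mbd4-/- on the vertical and ES wild type on the horizontal axis (log2 bound over input, array median 0). Red points are the 30 regions of the maternally methylated imprinted list, and orange points are Nefm, Tob2, Atf4, Samd12 and Acss2, which had opposite states. Kcnq1 and B3galtl also had opposite states but are drawn in grey. Dotted lines mark 0 and 50% of each plateau, and the line marks equal values: imprinted regions such as Zrsr1 (4.17 in ES mbd4-/- and −2.04 in ES wild type) form a group at the upper left, and Samd12 and Acss2 stand alone at the lower right.

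States, which do not depend on the plateau scale, give a narrower picture. Of all regions, 6118 were low in both and 778 high in both. ES mbd4-/- had 1079 high regions (8.41%) and ES wild type 802 (6.25%). High in ES mbd4-/- and low in ES wild type were 14 regions (0.109%), and low in ES mbd4-/- and high in ES wild type were 2 (0.0156%). Of the 14, 10 belong to imprinted loci: Zrsr1, Mcts2, Plagl1, Nap1l5, Peg3, Igf2r, Peg10, Grb10, Kcnq1 and Gnas. The other 4, named after their values were seen, are Nefm, Tob2, Atf4 and B3galtl.

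Genes at imprinted control regions methylated on the maternal copy gave a list of 30 regions of 21 genes. Such control regions acquire methylation in the oocyte and keep it in later tissues, where nearby genes are then expressed from 1 parental copy. Regions were matched by gene name, so the list also holds other islands of these genes and of their hosts. The H13 promoter, for instance, read at most −0.18 in liver and −0.26 in spleen. High on all liver and spleen arrays were 20 of the 30 regions. In the list 17 regions were higher and none lower, beside 7.98% and 2.47% of all regions. Of its 30 differences 26 were positive, against 7086 of 12824 over all regions. The median difference was 1.22 (3.30 in ES mbd4-/- and 0.05 in ES wild type), against 0.07 over all regions. At one plateau 16 were higher and 1 lower, and without chromosomes 1, 8 and 11, 14 of 23 were higher and none lower. High were 17 regions in ES mbd4-/- and 3 in ES wild type.

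The retrogenes among them, intronless copies that sit inside a host gene, differed from the regions named after their hosts. Zrsr1, a copy of a splicing factor gene within Commd1, averaged 4.17 ± 0.34 in ES mbd4-/- and −2.04 ± 1.39 in ES wild type over 9 probes (chr11:22872000-22873052), a difference of 6.21. Its probes ran from 3.71 to 4.63 in ES mbd4-/- and from −4.31 to 0.04 in ES wild type, with no overlap. Bound signal was well above background for 5 of the 9 probes in ES wild type, and with probes above background on both arrays the difference was 5.24, less than at Mcts2, Plagl1 and Nap1l5. A RefSeq promoter window of Commd1 also held 2 probes of the Zrsr1 region. The nearby region named Commd1 differed by 1.19, at 0.57 ± 0.65 in ES mbd4-/- and −0.62 ± 1.34 in ES wild type, and its probes overlapped. Mcts2, a copy of a gene for a translation factor, stood at 4.56 ± 0.32 in ES mbd4-/- and −1.04 ± 0.41 in ES wild type (5 probes, chr2:152512463-152513054). The promoter of its host H13, a signal peptide peptidase gene, stood at −0.71 ± 1.48 in ES mbd4-/- and 0.05 ± 0.74 in ES wild type and did not pass. Nap1l5, of the nucleosome assembly family, stood at 5.12 ± 0.29 in ES mbd4-/- and −0.26 ± 0.52 in ES wild type (4 probes, chr6:58856617-58857246), whereas its host Herc3 read 0.30 in ES mbd4-/- and 0.39 in ES wild type. The same contrast held within Inpp5f, an inositol phosphatase gene: an internal region differed by 3.84 (4.25 ± 0.34 in ES mbd4-/- and 0.41 ± 0.45 in ES wild type), while the promoter region differed by −0.97 and passed as lower at one plateau alone (−1.04). Nnat, which encodes a small membrane protein of developing brain and lies within Blcap, differed by 4.88, and Blcap by 0.56.

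**Figure D2:**
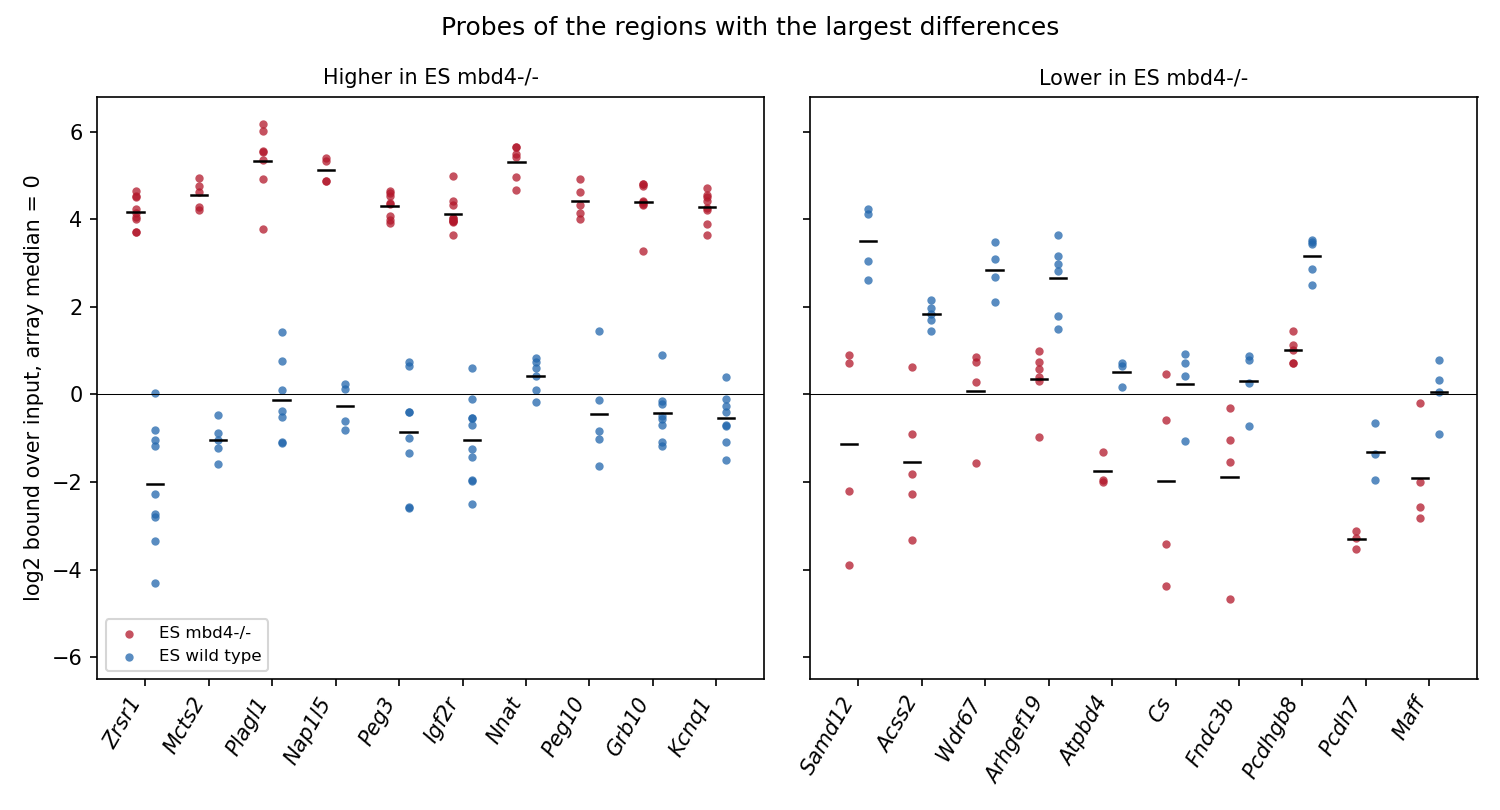
Probes of the 10 regions with the largest positive differences (left panel) and the 10 with the largest negative ones (right panel), ES mbd4-/- in red left of ES wild type in blue for each region, as log2 bound over input with the array median at 0 and black bars for region means. In the left panel every ES mbd4-/- probe lies above every ES wild type probe, while in the right panel the ES mbd4-/- probes scatter widely in some regions, as in Samd12 (−3.90 to 0.91), and lie close together in others, as in Pcdhgb8 (0.71 to 1.46).

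Loci with several regions showed where along the gene the arrays differed. At Gnas, which encodes the stimulatory G protein alpha subunit and neighbouring transcripts, 5 regions lay along chromosome 2. Going up in position, the difference was 1.15 (10 probes), 4.80 (3 probes), 4.15 (20 probes), 2.26 (11 probes, the Gnas promoter window) and −0.34 (6 probes). The 20-probe region averaged 4.44 ± 0.44 in ES mbd4-/- and 0.28 ± 0.73 in ES wild type (chr2:174124027-174126550). At Grb10, which encodes an adaptor that restrains growth factor signalling, 1 region differed by 4.82 (4.39 ± 0.49 in ES mbd4-/- and −0.43 ± 0.65 in ES wild type), and the other 2 regions differed by 0.25 and 0.18. At Igf2r, the receptor that clears insulin-like growth factor 2, an internal region of 10 probes differed by 5.16 (4.13 ± 0.37 in ES mbd4-/- and −1.04 ± 0.96 in ES wild type, chr17:12934260-12935460), and the promoter region by 0.60 (1.19 ± 0.44 in ES mbd4-/- and 0.60 ± 0.45 in ES wild type). In the mouse the imprinted control region of this locus lies inside the gene, at the start of the antisense transcript Airn. The Igf2r promoter itself was bound in mbd4-/- liver (3.22) and spleen (2.90).

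Further members were Plagl1, a zinc finger regulator of the imprinted network, at 5.33 ± 0.80 in ES mbd4-/- and −0.12 ± 0.94 in ES wild type, Peg3, another zinc finger gene, at 4.30 ± 0.28 in ES mbd4-/- and −0.86 ± 1.28 in ES wild type, and Peg10, a gene derived from a retrotransposon, at 4.40 ± 0.36 in ES mbd4-/- and −0.44 ± 1.18 in ES wild type. Mest differed by 3.57 (4.80 in ES mbd4-/- and 1.22 in ES wild type). Some members did not stand apart. Impact read 0.53 in ES mbd4-/- and −0.71 in ES wild type, a difference of 1.24 carried by fewer than 75% of its 3 probes. The region named Usp29 was high on both arrays (4.54 in ES mbd4-/- and 3.73 in ES wild type), as was 1 Cdh15 region (4.95 in ES mbd4-/- and 4.40 in ES wild type). The Usp29 promoter window lay elsewhere and held 2 probes of the Peg3 region, which differed by 5.17.

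The 20 regions of this list that were high on all 4 liver and spleen arrays set the ES arrays side by side with tissue. That filter used no ES array, but the list itself was chosen with earlier results of these data known. The median of the 20 in percent of the plateau was 102% in ES mbd4-/- and −0.90% in ES wild type. It was 92.1% in ES aid-/- and −6.04% in the Gadd45a knock down, and between 65.9% and 83.4% on the liver and spleen arrays. The liver and spleen medians could not fall under the limit for a high state, because the regions were picked on those arrays. High were 16 of the 20 in ES mbd4-/- and 2 in ES wild type, 10 were low in ES wild type, and none was low in ES mbd4-/-. Within the list Mcts2 and Nap1l5 read 1.57 and 1.46 in ES aid-/-, where the median of the 20 was 4.00, and Impact read 4.12 there. Because aid-/- and mbd4-/- ES cells share the 1 wild-type array, values only are given side by side. Whether the wild-type cells had lost or the mutant cells had gained binding at these regions was not tested.

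**Figure D3:**
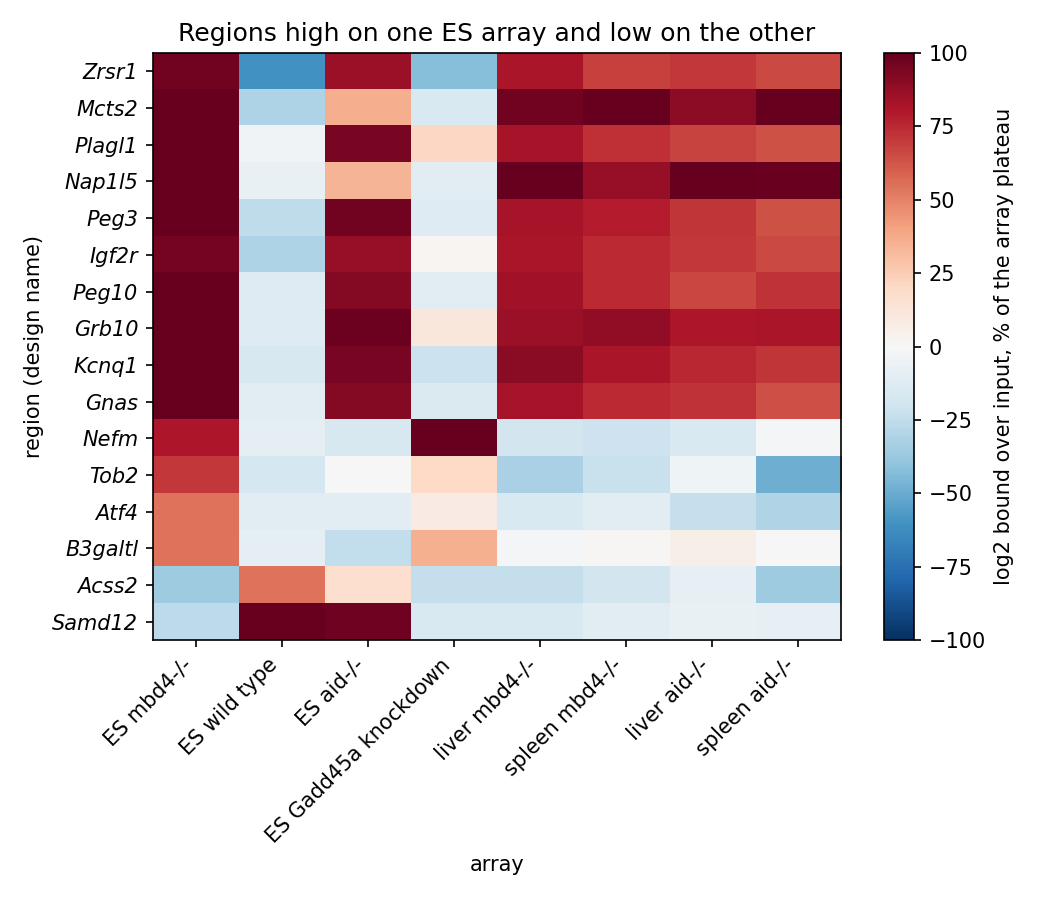
The map shows, from the top, the 14 regions high in ES mbd4-/- and low in ES wild type and, below them, the 2 with opposite states, named as in the array design, and columns are the 8 arrays. Colour gives log2 bound over input in percent of the plateau of the array and is at full strength at the plateau: imprinted regions are red on liver and spleen arrays too, while Tob2, Atf4 and B3galtl reach 50% in ES mbd4-/- alone and Samd12 in ES wild type and ES aid-/-.

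Imprinted domains with methylation on the paternal copy held 7 regions of 4 genes, 1 of them higher (14.3%, beside 7.98% of all regions). That was Dlk1, a Notch family ligand gene, at 3.81 ± 0.58 in ES mbd4-/- and 2.54 ± 0.84 in ES wild type, a difference of 1.26 (0.49 at one plateau). Other imprinted genes held 25 regions, 3 of them higher and 1 lower (3 and none at one plateau). Kcnq1, a potassium channel gene, led them with 4.27 ± 0.36 in ES mbd4-/- and −0.54 ± 0.59 in ES wild type over 8 probes (chr7:150481208-150482535). A probe of this region lies in the promoter window of Kcnq1ot1, the antisense RNA that silences the Kcnq1 domain. Wt1 (1.12) and Sfmbt2 (1.04) were the other higher regions, and Tssc4 was the lower one (−1.33), with 3 of 8 bound probes above background in ES mbd4-/-. Sfmbt2 was low on both arrays, with 2 of 4 bound probes above background on each.

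Islands of germ cell genes were the next group, and their differences depended on the scale. Promoter methylation silences many of these genes in somatic cells. Of 23 germ cell and meiosis regions 9 were higher (39.1%) and none lower, beside 7.98% and 2.47% of all regions. Their median difference was 0.84 (2.60 in ES mbd4-/- and 1.32 in ES wild type). At one plateau 2 were higher, beside 4.39% of all regions. Spo11, which makes the breaks that start meiotic recombination, stood at 4.35 ± 0.34 in ES mbd4-/- and 2.54 ± 0.17 in ES wild type (0.97 at one plateau). Msh4, a meiotic mismatch repair homologue, stood at 1.91 ± 0.51 in ES mbd4-/- and 0.43 ± 0.34 in ES wild type and passed on both scales. Sycp1, of the synaptonemal complex, and Smc1b, of meiotic cohesin, differed by 1.35 and 1.28 and did not pass at one plateau. Of 11 regions of the piRNA pathway, which guards the germ line against transposons, 6 were higher (54.5%) and 1 lower (9.09%). At one plateau 1 was higher and 1 lower. The lower one was Mybl1, a germ cell transcription factor gene (−1.29). The Mybl1 deficit lay in 1 of its 3 probes, which was not well above background in ES mbd4-/-, while the others differed by −0.04 and −0.19, and without chromosomes 1, 8 and 11 no piRNA region was lower. The 1 that was higher on both scales was Tdrd1, a tudor domain gene, at 3.96 ± 0.50 in ES mbd4-/- and 2.18 ± 0.23 in ES wild type. Piwil2, which encodes a PIWI protein, differed by 1.47 and by 0.85 at one plateau. Dazl, Dpep3 and Tuba3a were above the plateau on both arrays (4.98 to 5.22 in ES mbd4-/-, 4.14 to 4.68 in ES wild type) and did not pass.

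Pluripotency genes held 31 regions, 7 higher (22.6%) and none lower, beside 7.98% and 2.47% of all regions. At one plateau 3 were higher, beside 4.39% of all regions. The longest regions were low on both arrays. The 20-probe Sox2 region read −0.43 in ES mbd4-/- and −0.22 in ES wild type, the 10-probe Klf2 region −0.34 in ES mbd4-/- and −0.40 in ES wild type, and the 9-probe region at the Esrrb promoter −0.73 in ES mbd4-/- and −0.62 in ES wild type. A second region of Esrrb, a nuclear receptor gene of the naive state, with no probe in a promoter window, stood at 1.99 ± 0.31 in ES mbd4-/- and −0.08 ± 1.44 in ES wild type. Prdm14, which represses DNA methylation genes in ES cells, stood at 1.05 ± 0.80 in ES mbd4-/- and −0.34 ± 0.43 in ES wild type. Sall4 had 3 of its 4 regions higher, the first at 4.06 ± 0.35 in ES mbd4-/- and 2.63 ± 0.35 in ES wild type, and none of the 3 passed at one plateau. A 3-probe Sox2 region had no bound probe above background in ES wild type and was at least 2.16-fold higher in ES mbd4-/-. Pou5f1 and Nanog had no region of 3 or more probes, and an array of DNA methylation shows no expression, so the cell type was checked no further. Of the markers of other cells, 1 of 12 fibroblast regions (Loxl1, 1.02), 1 of 9 blood and immune regions (Zap70, 1.18) and the 1 liver region (F2, 1.08) were higher and none lower, and none of them passed at one plateau. The fibroblast and blood shares were 8.33% and 11.1%, beside 7.98% of all regions. The part of these markers in the results was not tested.

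Genes of DNA methylation and repair differed little, with 4.0% and none of their regions higher, beside 7.98% of all regions. Of 25 regions of the methylation machinery 1 was higher, a 3-probe Mbd3 region (2.65 ± 0.72 in ES mbd4-/- and 1.36 ± 0.59 in ES wild type), which did not pass at one plateau, where 1 other region did (Gadd45b, 1.01). None of 20 base excision and mismatch repair regions was higher, and the Ift122 and Mbd4 region above was the 1 lower (none at one plateau). Tdg, which encodes the other thymine glycosylase acting on G:T mismatches, read −0.51 ± 1.50 in ES mbd4-/- and 0.04 ± 0.67 in ES wild type. Gadd45a read −1.53 ± 2.23 in ES mbd4-/- and −0.65 ± 1.00 in ES wild type, and neither passed.

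**Figure D4:**
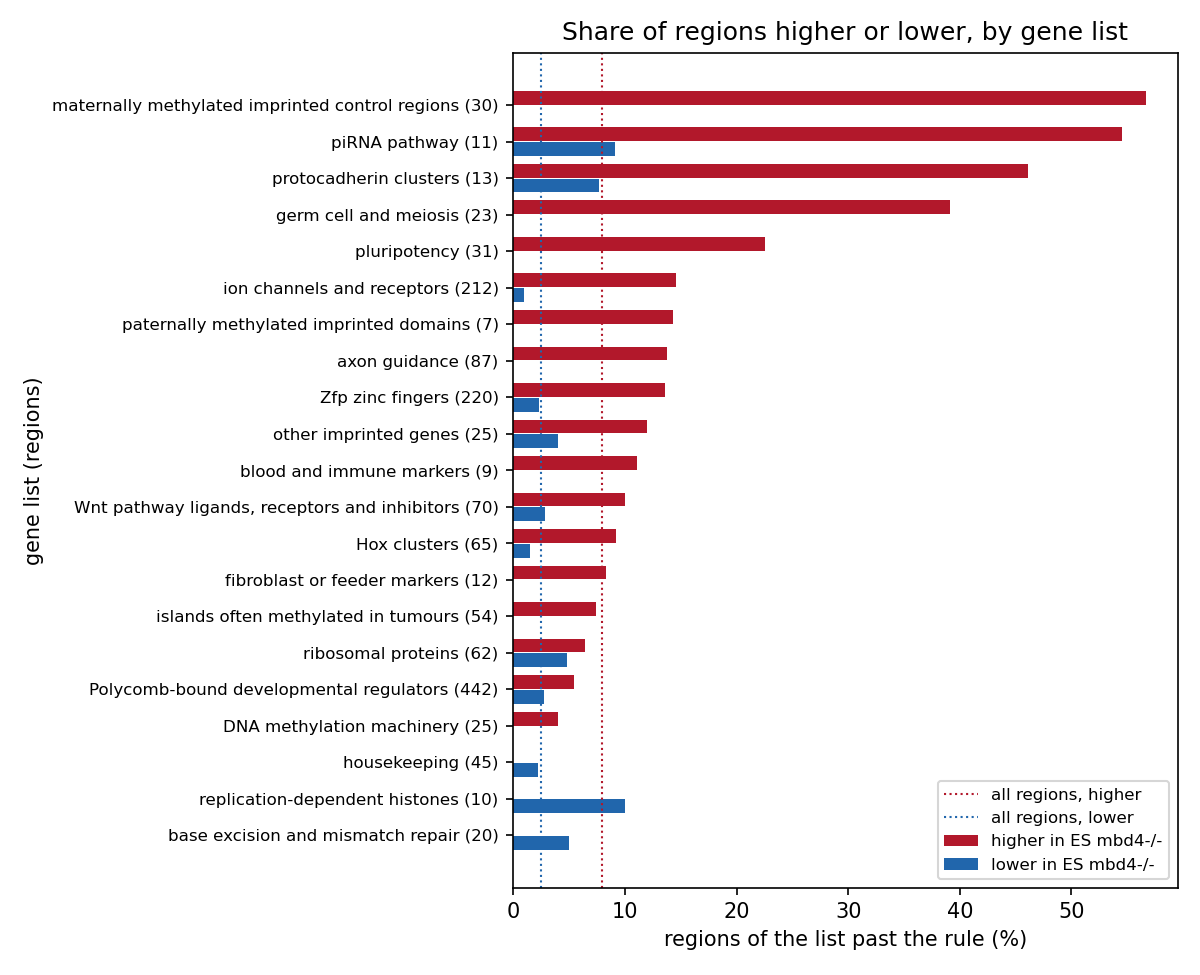
Bars give the percentage of regions of each gene list that were higher (red) or lower (blue) in ES mbd4-/- than in ES wild type, with the number of regions in brackets and dotted lines at 7.98% and 2.47% for all regions. Lists with fewer than 7 regions are not drawn, and the maternally methylated imprinted list has the largest share higher (56.7%), followed by the piRNA list, of which 1 of 11 was higher at one plateau.

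Clustered protocadherin genes, cell surface receptors that give neurons their identity, included regions in both directions. Of 13 regions 6 were higher (46.2%) and 1 lower (7.69%), beside 7.98% and 2.47% of all regions. At one plateau 4 were higher and 4 lower, beside 4.39% and 1.79% of all regions. All 6 higher regions were of the alpha cluster, among them Pcdha6 (3.27 ± 0.39 in ES mbd4-/- and 1.30 ± 0.19 in ES wild type), Pcdha10 (1.88) and Pcdha12 (1.86 and 1.25). The gamma cluster held the lower one, Pcdhgb8, at 1.01 ± 0.31 in ES mbd4-/- and 3.16 ± 0.46 in ES wild type, a difference of −2.15 with no overlap of its 5 probes. The Pcdhga11 and Pcdhga12 regions differed by −0.36, −0.37 and −0.99 and passed as lower at one plateau alone.

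Developmental regulators bound by Polycomb in ES cells stayed close to the rest of the array. Of 442 regions 24 were higher (5.43%) and 12 lower (2.71%), with a median difference of −0.03, beside 7.98%, 2.47% and 0.07 over all regions, and at one plateau 17 were higher and 10 lower. Zic4, a zinc finger gene of cerebellar development, was the largest, at 3.00 ± 0.28 in ES mbd4-/- and 0.07 ± 0.57 in ES wild type (5 probes, chr9:91278786-91279313), and it read at most 0.72 on the 6 other arrays. Neurod1 differed by 2.08 and Six3 by 1.96, where 1 of 3 bound probes of Six3 was above background in ES wild type. Wnt5a (−1.58) and Neurog3 (−1.89) were lower, and Neurog3 had 2 of 4 bound probes above background in ES mbd4-/-. Hox and Wnt counts were also near those shares. Of 65 Hox regions 6 were higher (9.23%), such as Hoxd12 (2.61 ± 0.07 in ES mbd4-/- and 1.05 ± 0.38 in ES wild type), and 1 lower, with 6 and none at one plateau and 3 of 48 higher without chromosomes 1, 8 and 11. Of 70 Wnt pathway regions 7 were higher (10.0%), such as Wnt7b (1.73) and Wnt5b (1.64), and 2 lower (2.86%), with 4 and 3 at one plateau and 3 of 47 higher without those chromosomes.

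Larger gene families were read in the same way, beside 7.98% higher and 2.47% lower over all regions (4.39% and 1.79% at one plateau). Ion channel and receptor genes had 31 of 212 regions higher (14.6%) and 2 lower, and 12 higher at one plateau; Kcng4 (2.14), Grm4 (2.10) and Trpm6 (2.10) followed Kcnq1. Axon guidance genes had 12 of 87 higher (13.8%), such as Nrp1 (1.71) and Ephb2 (1.47, and 0.62 at one plateau), and none lower. Nrp1 was low on both arrays (−0.30 in ES mbd4-/- and −2.01 in ES wild type), with 2 of 3 bound probes above background on each. At one plateau 2 of the 87 were higher, a share below the 4.39% of all regions. Zfp zinc finger genes had 30 of 220 higher (13.6%) and 5 lower, and 21 higher at one plateau, with Zfp30 at 4.64 ± 0.21 in ES mbd4-/- and 2.26 ± 0.16 in ES wild type. Islands often methylated in tumours had 4 of 54 higher (7.41%), a share below the 7.98% of all regions, and 2 at one plateau. Among the 4, Chfr, a mitotic checkpoint gene, stood at 1.72 ± 0.59 in ES mbd4-/- and −0.24 ± 1.03 in ES wild type at its promoter, while Syk differed by 1.56 and Fhit by 1.23. Ribosomal protein genes had 4 of 62 higher (6.45%) and 3 lower (4.84%), with 3 and 2 at one plateau, among them Rps10 (1.58) and Rps24 (−1.43). Replication-dependent histone genes had none of 10 higher and 1 lower (Hist1h3g, whose bound signal was not well above background in ES mbd4-/-), with none at one plateau, and housekeeping genes none of 45 higher and 1 lower, Cs, the citrate synthase gene (−2.22), with 3 higher and 1 lower at one plateau. Bound probes above background in ES mbd4-/- were 2 of 4 for Cs and 2 of 5 for Rps24. No region carried a microRNA name.

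Position relative to promoters separated the higher regions. Among 6079 regions with no probe in a RefSeq promoter window 13.8% were higher, against 2.77% of 6745 regions with one, and at one plateau the shares were 6.32% and 2.65%. Lower regions made up 2.48% and 2.46%. Short regions were higher more often than long ones: 15.5% in the shortest of 5 equal classes and 3.08% in the longest (7.17% and 2.18% at one plateau). They were also lower more often, at 2.57% and 1.21% (2.30% and 0.62% at one plateau). CpG density followed the scale: the share fell from 13.2% in the class poorest in CpG to 5.03% in the richest, but it was 4.68% and 4.44% at one plateau. Islands that were high on all 4 liver and spleen arrays numbered 969. Of these 515 were higher (53.1%) and 2 lower, and 152 higher (15.7%) and 12 lower at one plateau, where their median difference was 0.28 in place of 1.04. High states do not depend on that scale, and 854 of the 969 (88.1%) were high in ES mbd4-/-, against 699 (72.1%) in ES wild type. In this set 159 were high in ES mbd4-/- and not in ES wild type, and 4 the other way round (Pcdhgb8, Has1, Nr1h2 and 1 with no symbol). Of the 29 that were low in ES wild type, 10 were high in ES mbd4-/-, all of them imprinted.

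Regions outside the imprinted loci and the lists, named after their values were seen, included some that were bound in ES mbd4-/- and hardly elsewhere. Atf4, the transcription factor gene of the integrated stress response, stood at 2.35 in ES mbd4-/- and −0.34 in ES wild type over 10 probes at its promoter (chr15:80085473-80086623), and read between −0.67 and 0.23 on the 6 other arrays. Its probes ran from 1.67 to 2.90 in ES mbd4-/- and from −2.01 to 1.50 in ES wild type. Tob2, which encodes an antiproliferative protein, stood at 3.06 in ES mbd4-/- and −0.60 in ES wild type (3 probes) and at most 0.55 elsewhere. B3galtl, a glucosyltransferase gene, stood at 2.33 in ES mbd4-/- and −0.30 in ES wild type (6 probes), and at 1.00 in the Gadd45a knock down.

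Others were shared with 1 or more arrays. Nefm, which encodes the medium neurofilament protein, stood at 3.48 in ES mbd4-/- and −0.34 in ES wild type (14 probes, chr14:68741625-68743210), at 3.73 in the Gadd45a knock down and at −0.69 in ES aid-/-. The promoter of Rgcc, a cell cycle regulator gene named 1190002H23Rik in the design, stood at 4.10 in ES mbd4-/- and 0.29 in ES wild type (10 probes), at 2.67 in the Gadd45a knock down and at −0.08 in ES aid-/-. The ES mbd4-/- and Gadd45a knock down arrays share the older scanner software version, and its part in these values was not tested. In contrast Dst, which encodes a cytoskeletal linker (3.71 in ES mbd4-/- and 0.64 in ES wild type), Foxr1, a forkhead gene (3.67 in ES mbd4-/- and 0.86 in ES wild type) and Mycn, a MYC family gene (3.02 in ES mbd4-/- and 0.25 in ES wild type) read 3.37, 3.70 and 3.02 in ES aid-/-. High in ES mbd4-/- and on none of the 7 other arrays were 46 regions (0.359%), among them Tob2, Zic4, Tekt1, Atf4, B3galtl and Cyp2r1, against 6 for ES wild type (0.0468%) and between 8 and 395 for each other array. The highest of the 46 values in ES aid-/- was 2.16, just under the limit of 2.17 for a high state there, and the median was 1.73. Of the 46, 43 were higher than ES wild type by the call rule and 26 at one plateau. No region was high on all 7 other arrays and not in ES mbd4-/-, whereas 12 were so for ES wild type. The count was also 0 for ES aid-/- and aid-/- spleen, 3 to 6 for the other tissue arrays and 217 for the Gadd45a knock down.

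The largest deficits in ES mbd4-/- did not lie at imprinted genes. Samd12, a gene with a SAM domain, stood at −1.12 ± 2.33 in ES mbd4-/- and 3.50 ± 0.79 in ES wild type (4 probes, chr15:53733924-53734249), a difference of −4.62 (−3.85 with probes above background on both arrays). It read 4.23 in ES aid-/- and between −0.60 and −0.17 on the other 5 arrays, so it was high on 2 ES arrays alone. Acss2, which makes acetyl-CoA from acetate, stood at −1.54 ± 1.49 in ES mbd4-/- and 1.83 ± 0.27 in ES wild type at its promoter (5 probes, chr2:155343571-155344180), at 0.75 in ES aid-/- and below 0 on the other arrays. Wdr67 stood at 0.08 ± 1.12 in ES mbd4-/- and 2.84 ± 0.59 in ES wild type, and Arhgef19, a guanine nucleotide exchange factor gene, at 0.34 ± 0.69 in ES mbd4-/- and 2.65 ± 0.83 in ES wild type. In these 4 regions the probes of the arrays did not overlap. Arhgef19 read 3.08 in ES aid-/- and 3.56 in mbd4-/- liver, and Wdr67 0.93 and −0.11. Atpbd4 (−2.27), Fndc3b (−2.19) and Maff (−1.96) stood between −1.90 and −1.76 in ES mbd4-/- and between 0.06 and 0.51 in ES wild type, and each had 2 bound probes above background in ES mbd4-/-. Pcdh7 had none, and was at least 1.59-fold lower.

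Chromosomes 1, 8 and 11 differed from the rest in input signal and in the ratio. Their median region difference was 0.289 to 0.297, against −0.087 to 0.098 on the other 16 autosomes. Higher were 10.3% of their 2594 regions and lower 1.04%, against 7.38% and 2.83% of the other 10230. Against the mean input of liver and spleen, the input of these chromosomes stood at −0.019, 0.011 and 0.116 in ES mbd4-/- and at 0.335, 0.369 and 0.428 in ES wild type, so it was the wild-type array that lay apart from the tissues. With each chromosome centred on its own median, 1012 regions were higher and 288 lower, and 16 of the 30 imprinted regions were higher.

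**Figure D5:**
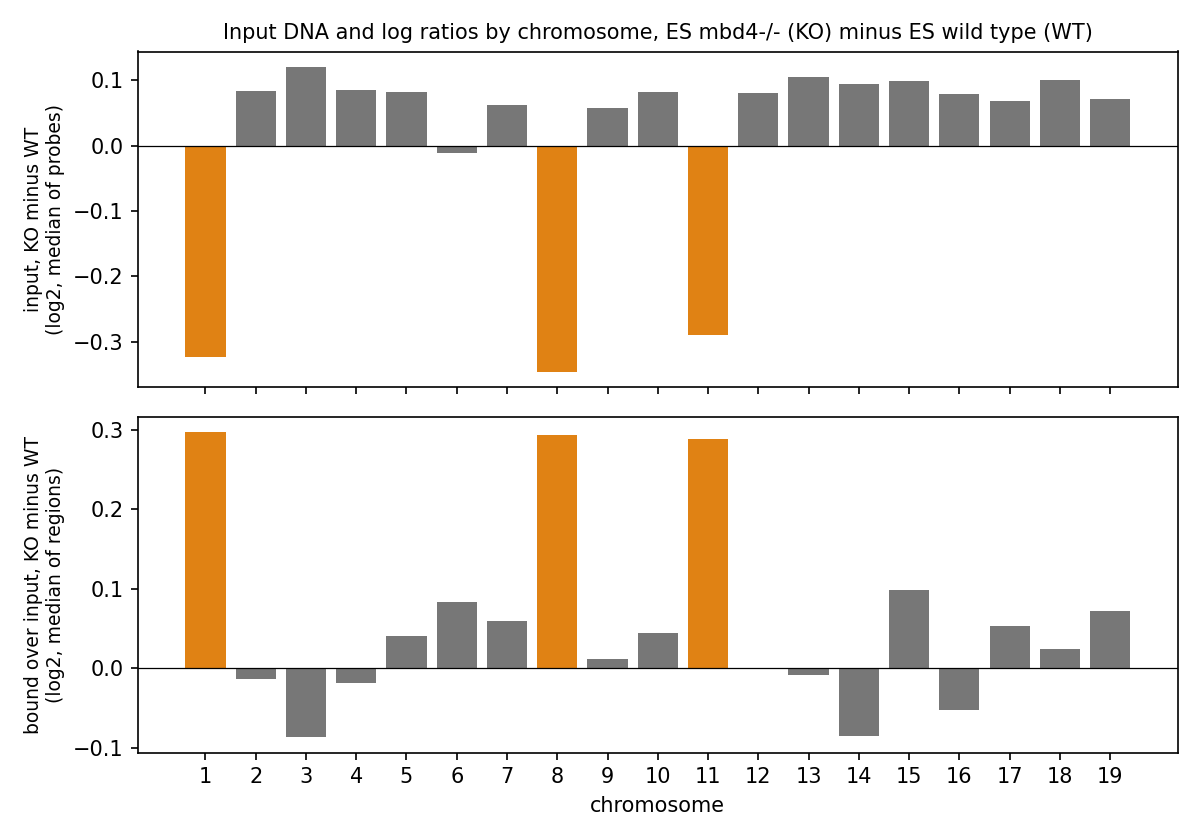
Upper panel: median over probes of the input signal in ES mbd4-/- minus ES wild type (log2) for each autosome. Lower panel: median over regions of log2 bound over input in ES mbd4-/- minus ES wild type, with chromosomes 1, 8 and 11 in orange, where the input difference is −0.323, −0.346 and −0.289 and the region difference is about 0.29.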

How the data were processed

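Per the file headers, Agilent Feature Extraction wrote the deposited intensity values of each spot, among them background-subtracted and dye-normalised processed signals, with mm9 positions. The scanner's log10 ratio (Cy5 over Cy3) in the deposited files was used to check direction. The deposited value table is a score whose scale and log base are unknown (medians −0.142 for ES mbd4-/- and −0.0293 for ES wild type, r = 0.957 and 0.958 with the scanner ratios over probes). It was multiplied by 1.42 and used only as an alternative. No header or label says how the authors made that table.

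Of 94687 spots, 5950 controls, 416 probes without a chromosome position, 132 outlier-marked probes and 7309 whose input was not well above background on any 1 of the 8 arrays were left out. Each probe's log2 processed Cy5 over Cy3 was centred on its array's median over all 88737 probes, with no loess or quantile step. Probes with starts up to 500 bp apart on chromosomes 1 to 19 were joined, and 12824 of 15103 regions had 3 or more probes. Names are those of the design: 11690 regions carry one, and of 9665 symbols 8113 are current and 1433 older in RefSeq. No exon annotation was used. Precision is limited by 1 array per group. Calls were described without a test, and the script was tested on simulated data.

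The text names the 10 largest differences each way, up to 4 counted regions per list, regions with opposite states, and Mbd4, Gadd45a and Tdg. Other names (host genes, regions that did not pass, and Nefm to Mycn) were chosen after their values were seen. Members and lists were chosen with earlier results of these data known. Alternatives covered scale, centring, background (limma 3.58.1 normexp on median signals, since mean signals were not held for both arrays), GC, filters and joining. Python 3.11.15, pandas 2.3.3 and R 4.3.3 were used.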

Additional observations from a re-analysis of the deposited data

Results flagged for a closer look

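The input channel, which the comparison uses only as a denominator, carried a signal of its own on 3 chromosomes. Input signal in ES mbd4-/- minus ES wild type was −0.323 on chromosome 1, −0.346 on chromosome 8 and −0.289 on chromosome 11 (log2, median over probes). The largest such difference between any 2 liver or spleen arrays was 0.121. Other ES arrays also departed from the mean of liver and spleen on single chromosomes: ES aid-/- by 0.310, 0.331 and 0.342 on chromosomes 1, 8 and 19, and the Gadd45a knock down by 0.366 and 0.176 on chromosomes 8 and 14. The number of chromosomes per cell was not measured, and the cause was not tested.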

How the results depend on the processing

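No paired analysis was possible because each group is 1 array. Against 1023 regions higher and 317 lower, one plateau gave 563 higher, the deposited values 647 higher, normexp background 158 higher and 16 lower, 5 or more probes 419 and 146 (of 7684 regions), and a difference of at least 1.5 gave 300.0 and 58. Lower regions numbered 185 when centred on the low mode and 104 with bound signal above background on both arrays. Of the regions counted either way, 88.7%, 90.8% and 90.9% were higher in the low mode, normexp and bound-signal settings, against 76.3%. The share was 71.1% to 72.2% at one plateau, in the deposited values, with the median over probes and without chromosomes 1, 8 and 11. The median difference of all regions was 0.22 and 0.18 in the low mode and bound-signal settings, against 0.07. Regions high in ES mbd4-/- and low in ES wild type numbered 9 with normexp, 12 to 16 in all other settings, and the opposite state 1 in the deposited values. Of the imprinted list 13 to 19 regions were higher under every alternative run, and 1 region was lower at one plateau, in the deposited values, with GC correction and with the median over probes, against none. Of 76 named regions 25 still passed with normexp, 55 at one plateau and 46 at a difference of at least 1.5, and 39 of 61 in the deposited values, where F2 changed sign, to −0.10. The settings on chromosomes were chosen after seeing the data. Bound signal near background limits the low end, most of all in ES mbd4-/-, and no setting stands in for a second array.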
